A study of Mus musculus with 4 samples.

Results

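Ccl27a, Ccl27b, Gm13303, Gm10601, Gm21093, Vcp, Vcp-rs and Fancg are 8 mouse genes that were chosen by name from the 22084 genes in the deposited tables. They were listed because their counts in 3 libraries had been seen to differ from those of the wild-type library WT25F, so those differences are described below and not tested. Of the 8, 7 lie on a stretch of chromosome 4 that runs from Il11ra1 to Unc13b, and Vcp-rs, a copy of Vcp, lies on chromosome X. All 8 passed the filter on low counts.

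The 4 libraries hold total RNA of telencephalic tissue, the front of the embryonic brain, from E13.5 mouse embryos of strain B6D2F2. The extraction protocol names cerebral cortex instead, so the labels conflict on the piece taken. KO26F and KO23M are labelled TCF20-/- and WT25F is labelled TCF20+/+. WT22M is wild type by its title and TCF20+/- by its genotype field. WT25F and WT22M are called carriers, since either label leaves a wild-type allele of Tcf20, and no agent was given to any embryo per the labels. No source used here gives the deleted part of Tcf20 or the litters. P-values therefore measure only the spread between these 4 samples, which may be technical in part. By title the KO pair and the carrier pair each join an F and an M library. The spread thus also holds any difference between those letters.

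Depth ran from 17791641 to 18509743 counts per library. Tcf20 itself stood at 98.6 and 104 CPM (a count divided by its library total and rescaled) in the KO libraries and at 118 and 111 in WT25F and WT22M, counted over the whole gene, which does not check the deletion. The title letters F and M matched Xist and Ddx3y in 4 of 4 libraries. All 12 telencephalon markers had counts in every library, with summed levels of 3242 to 3658 CPM. WT22M stood apart in choroid plexus genes, those of the fluid-making tissue inside the brain ventricles: 8 of 8 markers were detected in all libraries, and their sum was 202 CPM in WT22M against 784 to 1005 in the other libraries. Meninges markers summed to 335 and 354 CPM in the KO libraries and to 421 and 431 in the carriers, microglia markers to 77.2 to 102 and lymphoid and stromal markers to 102 to 120. In the test of KO libraries against carriers given below, 0 of 8 meninges markers passed, with 8 log2 fold changes below 0. Microglia markers were mixed, with 2 above 0 and 6 below, and 0 passed.

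Ccl27a and Ccl27b encode the chemokine CCL27, a secreted protein best known from skin, where keratinocytes make it and T cells that carry the receptor CCR10 follow it. Vcp encodes p97, a ring-shaped ATPase that pulls ubiquitin-marked proteins out of membranes and complexes, with cofactors that choose its substrates. Fancg encodes a subunit of the Fanconi core complex, which acts in the repair of DNA crosslinks. A processed pseudogene such as Vcp-rs is a copy of a spliced messenger RNA inserted elsewhere in the genome, whereas an unprocessed pseudogene arose by duplication of genomic DNA. Reads from such copies can match several places, and no source used here says how the authors' counting treated them.

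The sequences below show how close the copies are, since that bears on every count that follows. Transcripts are those of GENCODE vM21 (GRCm38). Ccl27a (ENSMUSG00000073888, 41769467 to 41774247, minus strand) and Ccl27b (ENSMUSG00000096826, 42655251 to 42656005, plus strand) match over 425 bases of their short transcripts with 3 mismatches, an identity of 99.3%. In Ccl27a-203 the differences are C211T, G331A and A377C, with the Ccl27a base first and positions counted from 1 at the 5′ end of the transcript. All 3 fall in the coding part, bases 38 to 394. Bases 201 to 390 are shown 5′ to 3′, with the differing bases in capitals.
Ccl27a: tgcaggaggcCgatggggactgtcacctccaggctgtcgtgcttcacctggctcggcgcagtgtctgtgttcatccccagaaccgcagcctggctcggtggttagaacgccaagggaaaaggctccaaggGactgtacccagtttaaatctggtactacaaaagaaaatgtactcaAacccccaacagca
Ccl27b: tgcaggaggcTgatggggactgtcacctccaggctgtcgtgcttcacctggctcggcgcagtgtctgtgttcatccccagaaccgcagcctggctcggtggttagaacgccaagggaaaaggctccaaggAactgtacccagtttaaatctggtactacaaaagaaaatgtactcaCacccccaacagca

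A further copy, Gm13306 (42153436 to 42158839, plus strand), is annotated by the authors as C-C motif chemokine 27 and is not among the 8. Its transcript Gm13306-201 was identical to Ccl27b-201 over 418 bases, so a read from that stretch cannot be given to either gene. Of the 50-base windows of the Ccl27b transcripts, 98.1% also occur in Gm13306 and 61.4% in Ccl27a. The 238 bases before the start of the short Ccl27a transcript differ from those before Ccl27b at 2 positions in the RefSeq promoter table (GRCm38.p6).

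Vcp (ENSMUSG00000028452, 42979963 to 43000507, minus strand) is a gene of 17 exons in the transcript Vcp-201, and Vcp-rs (ENSMUSG00000083327, chromosome X, 104345829 to 104348234, minus strand) is a single exon of 2406 bases. The pair aligned over 2406 bases with 8 mismatches and a gap of 15 bases. The stretch below is coding in Vcp and holds 4 of the 8 mismatches, T1814C, T1817C, C1868T and A2087T in Vcp-201, and the gap. Capitals mark the mismatched bases and, in Vcp, the 15 bases that Vcp-rs lacks.
Vcp: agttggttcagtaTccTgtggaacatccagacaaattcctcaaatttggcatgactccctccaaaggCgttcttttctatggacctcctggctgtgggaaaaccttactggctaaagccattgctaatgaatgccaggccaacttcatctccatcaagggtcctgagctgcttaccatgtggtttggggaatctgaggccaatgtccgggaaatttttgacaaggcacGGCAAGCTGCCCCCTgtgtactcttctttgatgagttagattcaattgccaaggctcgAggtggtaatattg
Vcp-rs: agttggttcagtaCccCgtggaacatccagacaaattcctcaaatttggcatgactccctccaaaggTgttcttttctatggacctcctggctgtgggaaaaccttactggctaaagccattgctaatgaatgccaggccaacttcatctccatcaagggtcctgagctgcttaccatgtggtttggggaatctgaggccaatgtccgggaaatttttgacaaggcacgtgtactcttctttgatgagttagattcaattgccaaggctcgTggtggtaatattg

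Gm13303, Gm10601 and Gm21093 are not copies of Ccl27 by sequence. The authors' annotation describes all 3 as protein FAM205A, and 0 of their 50-base windows occur in Ccl27a, Ccl27b or Gm13306. They are close to each other instead. Gm13303 (ENSMUSG00000082414, 42025429 to 42026712, minus strand) and Gm10601 (ENSMUSG00000082962, 41809083 to 41810504, plus strand) are unprocessed pseudogenes that aligned over 1284 bases with 4 mismatches. Gm21093 (ENSMUSG00000096256, 42033017 to 42034726, minus strand), listed as protein coding in the files, aligned to Gm13303 over 769 bases with 3 mismatches. A stretch of 100 bases is shown, in which capitals mark a base that differs between Gm13303 and either of the others (A549G in Gm10601, G571A and G633A in Gm21093, positions in Gm13303-201).
Gm13303: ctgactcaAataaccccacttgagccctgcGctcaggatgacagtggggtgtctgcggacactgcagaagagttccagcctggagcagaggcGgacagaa
Gm10601: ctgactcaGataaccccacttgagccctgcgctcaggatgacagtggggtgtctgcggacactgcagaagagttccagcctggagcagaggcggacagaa
Gm21093: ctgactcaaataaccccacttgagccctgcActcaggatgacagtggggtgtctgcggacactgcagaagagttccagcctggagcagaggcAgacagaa

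Every 50-base window of Gm13303 also occurs in the neighbouring gene Gm10593, and every window of Gm21093 in Gm3883. Fancg (ENSMUSG00000028453, 43002343 to 43010506, minus strand), which lies next to Vcp, had 0 of 4167 windows in any other gene.

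**Figure D1:**
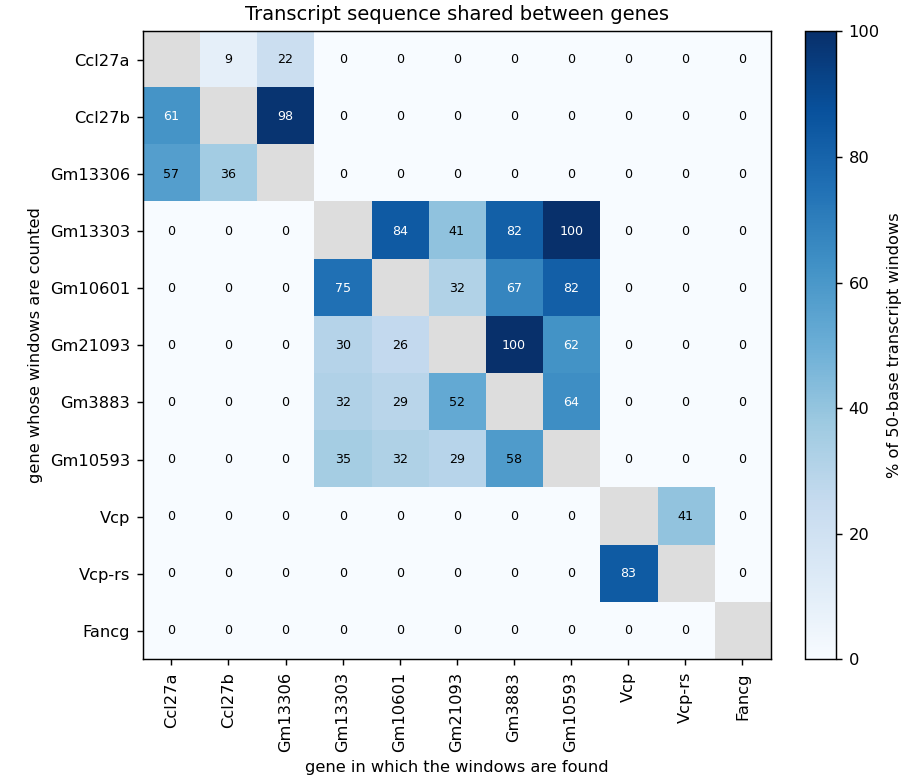
Share of each gene's 50-base transcript windows (rows, %) that occur on either strand in the transcripts of another gene (columns); grey squares are a gene against itself. Ccl27a, Ccl27b and Gm13306 share sequence, Gm13303, Gm10601 and Gm21093 share sequence with Gm3883 and Gm10593, Vcp shares with Vcp-rs, and no square joins these groups or Fancg.

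Among the chemokine genes, Ccl27a and Ccl27b differed between libraries in opposite directions. Ccl27a had 656 counts in WT25F, 917 in KO26F, 998 in KO23M and 1411 in WT22M. Carriers were therefore the lowest and the highest library, and both KO libraries lay between them. In CPM, Ccl27a stood at 36.6 in WT25F (95% Poisson interval 33.8 to 39.5), 50.6 in KO26F (47.4 to 54.0), 53.9 in KO23M (50.6 to 57.4) and 79.3 in WT22M (75.2 to 83.6). WT22M was 2.17 times WT25F, with an exact 95% counting interval of 1.98 to 2.38. These intervals cover counting error only, and in bulk tissue fewer cells of a type and less RNA per cell cannot be told apart. No label gives the genetic background of each embryo beyond its strain and Tcf20 genotype. A part of that background in the differences between libraries was not tested. The 3′ end of Ccl27a overlaps that of Il11ra1, a receptor gene for interleukin-11 on the other strand, only from base 41769467 to 41769474. Without a known strand setting, reads of those few bases could belong to either.

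Ccl27b had 95 counts in WT25F, 44 in KO26F, 49 in KO23M and 1 in WT22M, so WT25F was highest and WT22M lowest. Its level was 5.29 CPM in WT25F (95% Poisson interval 4.28 to 6.47), 2.43 in KO26F (1.76 to 3.26), 2.65 in KO23M (1.96 to 3.50) and 0.0562 in WT22M (0.00142 to 0.313). The intervals of the KO libraries overlapped each other and neither overlapped that of a carrier. Ccl27b made up 12.6% of the Ccl27a and Ccl27b counts in WT25F (exact binomial 95% interval 10.4 to 15.2), 4.58% in KO26F (3.35 to 6.10), 4.68% in KO23M (3.48 to 6.14) and 0.0708% in WT22M (0.00179 to 0.394). Gm13306, of whose windows 35.5% occur in Ccl27b and 56.7% in Ccl27a, had 21, 17, 16 and 8 counts in WT25F, KO26F, KO23M and WT22M, so it was not at 0 where Ccl27b had a single count. Ccl27a, Ccl27b and Gm13306 together came to 43.02 CPM in WT25F, 54.0 in KO26F, 57.4 in KO23M and 79.8 in WT22M, a highest-to-lowest ratio of 1.86. The summed chemokine counts thus differed between the carriers in the direction of Ccl27a, which held most of them.

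A list of other chemokine and interleukin-11 genes was read beside them. Ccr10, the receptor of CCL27, had 4, 5, 8 and 3 counts in WT25F, KO26F, KO23M and WT22M, and Ccl28, the other ligand of that receptor, had 6, 15, 1 and 6. Cxcr4, the receptor of CXCL12, was uneven, at 31.4 CPM in WT25F, 29.8 in KO26F, 39.1 in KO23M and 48.5 in WT22M, a highest-to-lowest ratio of 1.63. Of 16 genes of the list in the files besides the members, 9 were tested between the KO libraries and the carriers with edgeR's quasi-likelihood test, and 0 passed. Across all 16252 genes tested 10 were called (0.0615%). At an unadjusted p under 0.05 there was 1, Cxcl12, a guide of migrating neurons, at 74.3 and 72.9 CPM in the KO libraries and 93.6 and 88.5 in WT25F and WT22M (log2 fold change -0.31, SE 0.10, edgeR adjusted p = 1). Cxcl12 did pass with the title letter as a block, on the lower side (log2 fold change -0.31, SE 0.08, edgeR adjusted p = 0.0168), in a fit that called 123 genes. Cxcl14 and Cx3cl1, the next by p, had log2 fold changes of -0.30 and -0.09. The median over the 9 was -0.09, against 0.00 over all genes tested.

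Skin markers were looked at because CCL27 is a skin chemokine. Of 10 symbols 8 were in the files, without Krt5 and Krt14. Their summed level was 31.8 CPM in WT25F, 30.1 in KO26F, 33.4 in KO23M and 31.0 in WT22M. Single markers were less even. Krt8, a keratin of simple epithelia and the marker with the smallest p, had 47, 72, 50 and 28 counts in WT25F, KO26F, KO23M and WT22M, and Krt15 had 0, 5, 5 and 9. The part of such cells in the Ccl27a difference was not tested. Krt10 and Krt1, the next by p, had log2 fold changes of -0.21 and 0.20. Trp63, which marks epidermal stem cells, had 4, 7, 0 and 3 counts in WT25F, KO26F, KO23M and WT22M.

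The 3 FAM205A-annotated genes were each at 0 counts in WT22M and present in the other libraries. Gm13303 had 123 counts in WT25F, 90 in KO26F, 57 in KO23M and 0 in WT22M. Gm10601 had 58, 52, 47 and 0 counts in the same order, and Gm21093 had 68, 39, 26 and 0. WT25F was the highest library for each, and both KO libraries lay between the carriers. With 3 counts as the limit that a count of 0 allows in a library (0.169 CPM in WT22M), WT22M was at least 40.7-fold lower than WT25F for Gm13303, at least 19.2-fold lower for Gm10601 and at least 22.5-fold lower for Gm21093. The 3 genes together gave 13.9 CPM in WT25F (95% Poisson interval 12.2 to 15.7), 9.99 in KO26F (8.58 to 11.6), 7.02 in KO23M (5.87 to 8.34) and 0 in WT22M.

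Between KO26F and WT25F, Gm10601 was within counting error, at a ratio of 0.888 (95% counting interval 0.598 to 1.31). The ratio was 0.724 (0.546 to 0.958) for Gm13303 and 0.568 (0.373 to 0.854) for Gm21093. For KO23M the ratios to WT25F were 0.786 (0.523 to 1.17) for Gm10601, 0.449 (0.322 to 0.620) for Gm13303 and 0.371 (0.226 to 0.590) for Gm21093. The interval for Gm10601 held 1 in both KO libraries and those for Gm13303 and Gm21093 lay below it.

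**Figure D2:**
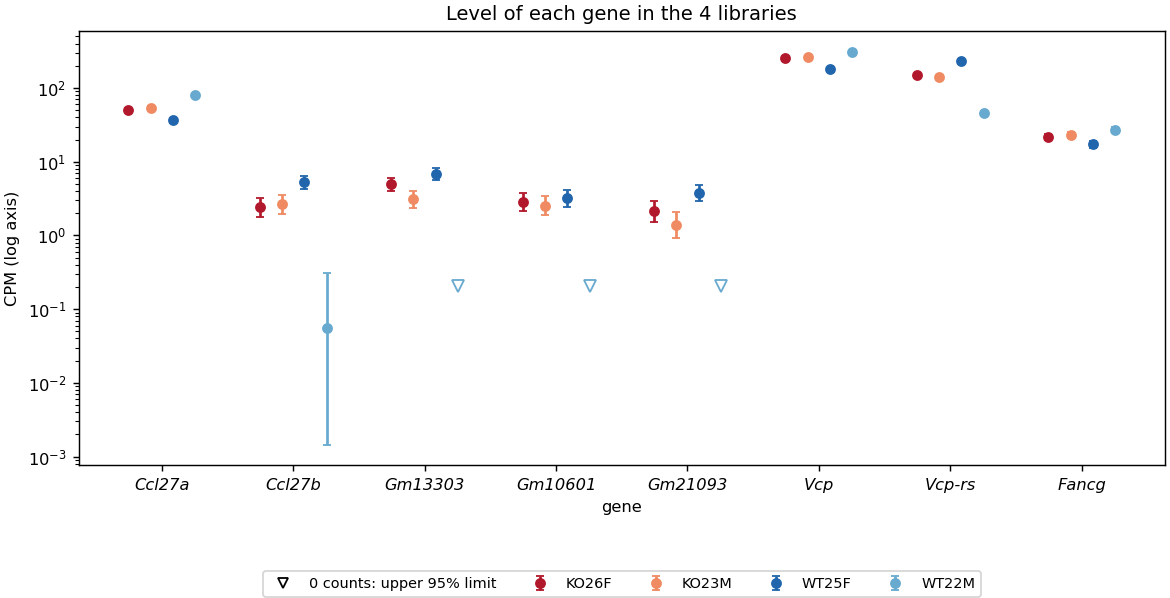
CPM of each of the 8 genes (log axis) in KO26F, KO23M, WT25F and WT22M; points are single libraries, bars are exact 95% Poisson intervals, and open triangles mark the upper 95% limit of libraries with 0 counts. For all 8 genes the KO points lie between WT25F and WT22M, and Gm13303, Gm10601 and Gm21093 have 0 counts in WT22M.

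Vcp and its pseudogene Vcp-rs also moved in opposite directions. Vcp had 3277 counts in WT25F, 4649 in KO26F, 4813 in KO23M and 5507 in WT22M. Its level was 183 CPM in WT25F (95% Poisson interval 176 to 189), 256 in KO26F (249 to 264), 260 in KO23M (253 to 267) and 310 in WT22M (301 to 318). The KO libraries overlapped in their intervals, and the carriers lay below and above them.

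Vcp-rs had 4137 counts in WT25F, 2697 in KO26F, 2600 in KO23M and 812 in WT22M. At 231 CPM in WT25F (224 to 238), 149 in KO26F (143 to 155), 140 in KO23M (135 to 146) and 45.6 in WT22M (42.6 to 48.9), it was highest where Vcp was lowest and lowest where Vcp was highest. WT22M was at 0.198 times WT25F (95% counting interval 0.183 to 0.213). Vcp-rs lies on the X chromosome, and both F libraries stood above both M libraries. The gap was unlike in size: KO26F and KO23M differed by 1.06 times and the carriers by 5.05 times. A part of sex in it was not tested.

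The sum of the pair varied less than either gene. It was 413 CPM in WT25F (95% Poisson interval 404 to 423), 405 in KO26F (396 to 415), 400 in KO23M (391 to 410) and 355 in WT22M (346 to 364), a highest-to-lowest ratio of 1.16. Vcp-rs took 55.8% of the summed counts in WT25F (exact binomial 95% interval 54.7 to 56.9), 36.7% in KO26F (35.6 to 37.8), 35.1% in KO23M (34.0 to 36.2) and 12.9% in WT22M (12.03 to 13.7). Of the 50-base windows of Vcp-rs, 83.2% occur in Vcp, and 40.5% of those of Vcp occur in Vcp-rs. How the counting divided shared reads between them was not tested. Vcp also overlaps 1700022I11Rik on the opposite strand. Per kilobase of annotated exon, the level in WT25F was 95.8 CPM for Vcp-rs and 37.6 for Vcp, and in WT22M the order was turned, with 19.0 for Vcp-rs and 63.8 for Vcp.

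**Figure D3:**
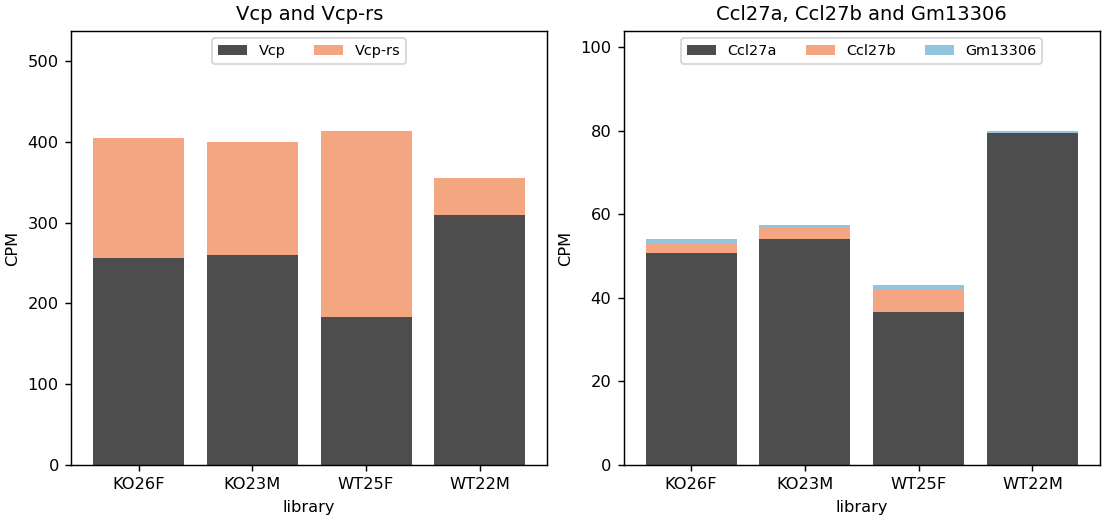
Stacked CPM of Vcp and Vcp-rs (left) and of Ccl27a, Ccl27b and Gm13306 (right) in each of the 4 libraries; each bar is 1 library. The Vcp and Vcp-rs bars reach 355 to 413 CPM while the share of Vcp-rs goes from 12.9% in WT22M to 55.8% in WT25F, and in the right panel Ccl27a makes up most of each bar.

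Cofactors bind p97 and pick its substrates. All 36 genes of the cofactor list found in the files were tested between the KO libraries and the carriers. The list also holds Nsf and Nvl, which are ATPases related to p97 and not its cofactors. Of the 36, 0 passed (0 also at an unadjusted p under 0.05), with 21 log2 fold changes above 0, 15 below and a median of 0.01. The smallest p-values belonged to Ubxn11 (log2 fold change 0.24), Vcpkmt, the methyltransferase that modifies p97 (-0.18), and Selenos, its anchor at the endoplasmic reticulum (0.14). Nsfl1c, the cofactor p47 of membrane fusion and the one with the most counts, stood at 187 CPM in WT25F, 180 in KO26F, 201 in KO23M and 209 in WT22M. It was chosen after its values were seen.

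Fancg had 311 counts in WT25F, 394 in KO26F, 431 in KO23M and 477 in WT22M. Its level was 17.3 CPM in WT25F (95% Poisson interval 15.5 to 19.4), 21.7 in KO26F (19.6 to 24.0), 23.3 in KO23M (21.1 to 25.6) and 26.8 in WT22M (24.5 to 29.3). The KO libraries overlapped each other and their intervals lay above that of WT25F, while that of KO23M overlapped that of WT22M. WT22M was at 1.55 times WT25F (95% counting interval 1.34 to 1.79), the smallest difference between carriers among the 8 genes.

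Of 30 other Fanconi genes, all tested, 0 passed and 19 had a log2 fold change above 0, with a median of 0.07. Usp1, which removes ubiquitin from FANCD2 and FANCI, had the smallest p, at 68.2 and 58.6 CPM in the KO libraries against 54.9 and 52.4 in WT25F and WT22M (log2 fold change 0.24, SE 0.11, edgeR adjusted p = 1). Fancb and Faap20, both of the core complex, followed at 0.45 and 0.24.

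Against WT25F, the 8 genes were read with a rule of at least a 2-fold difference in CPM and at least 10 counts in either library; the 3 comparisons share WT25F. In KO26F, 1 of the 8 was lower by that rule (Ccl27b), against 2.82% of all genes that reached 10 counts. KO23M had 2 of the 8 lower (Gm13303 and Gm21093), against 3.49%, and Ccl27b fell just outside the 2-fold limit. None of the 8 was higher by the rule in KO26F or KO23M, against 2.55% and 2.02% of all genes. In WT22M, 5 of the 8 were lower (Ccl27b, Gm13303, Gm10601, Gm21093 and Vcp-rs), against 3.92%, and 1 was higher (Ccl27a), against 2.39%. These contrasts are the ones from which the genes were chosen, so the counts describe the list and support nothing further.

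Between the KO libraries and the carriers, 0 of the 8 genes were called at an edgeR adjusted p under 0.05. At 5 called higher and 5 lower, each direction made up 0.0308% of all genes tested. Log2 fold changes were -0.16 for Ccl27a (SE 0.55), -0.07 for Ccl27b (1.83), 0.23 for Gm13303 (1.97), 0.74 for Gm10601 (1.78), -0.09 for Gm21093 (1.94), 0.06 for Vcp (0.36), 0.07 for Vcp-rs (1.05) and 0.02 for Fancg (0.19). The standard errors were larger than every one of these changes. Group means show the same: as mean and SD over n = 2 libraries, Vcp was 258 ± 2.52 CPM for KO and 246 ± 89.7 for carriers, Vcp-rs 145 ± 5.88 and 138 ± 131, and Ccl27a 52.3 ± 2.35 and 57.9 ± 30.2. For these 3 genes the spread was larger between the carriers than between the KO libraries. In all 8 genes both KO libraries lay between WT25F and WT22M, a position that 16.5% of all genes tested take. In 6 of the 8 the carriers were also at least 2-fold apart, against 2.1%. These positions rest on the values that chose the genes, and several of the 8 share sequence. They describe the list and support nothing further.

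Leaving out 1 carrier turned the direction for Vcp-rs. Without WT22M its log2 fold change was -0.66, past the threshold, and without WT25F it was 1.64, also past it. Without WT25F, Ccl27a (-0.62) passed on the lower side, and Ccl27b, Gm13303, Gm10601 and Gm21093 passed on the higher side. With 1 carrier left out the fit compares libraries whose differences chose the genes, so these calls are a description and not a test. Of all genes, 0.154% were called lower and 0.439% higher without WT25F, and 0.195% lower and 0.154% higher without WT22M. In those fits with a single carrier, that library is assumed to vary like the KO pair. Choroid plexus markers moved with WT22M too, as given above, and their part in these differences was not tested. Ttr, the carrier protein of thyroid hormone and the most abundant of them, was at 867 CPM in WT25F, 921 in KO26F, 719 in KO23M and 179 in WT22M.

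Other genes of the stretch were split by their sequence. A gene was called multi-copy where at least 50% of its 50-base transcript windows occur in another gene, a limit chosen after the data were seen. Of 35 neighbours, 21 were multi-copy and 14 were not. The 21 multi-copy neighbours summed to 16.7 CPM in WT25F, 10.2 in KO26F, 7.40 in KO23M and 2.92 in WT22M, and 13 of them had 0 counts in WT22M against 0 in WT25F. A gene without an entry for a library was set to 0 there, whereas WT25F had an entry for every gene. How many of the 13 lacked an entry for WT22M was not counted. The 14 others summed to 714, 702, 718 and 736 CPM in the same order. The multi-copy sum was thus highest in WT25F and lowest in WT22M, like Ccl27b and the 3 FAM205A-annotated genes, while the sum of the others was nearly even.

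Of the 13 multi-copy neighbours with at least 10 counts in WT22M or WT25F, 12 were at least 2-fold lower in WT22M, against 10.5% of all multi-copy genes. By the same rule 6 of 13 were lower in KO26F, against 8.24% of all multi-copy genes, and 9 of 13 in KO23M, against 8.01%. All 12 in WT22M, all 6 in KO26F and 7 of the 9 in KO23M reached 10 counts only through WT25F, so the filter itself favours lower values and these counts support nothing further. The exception in WT22M was Gm21955, with 16, 20, 14 and 25 counts in WT25F, KO26F, KO23M and WT22M. Among the 14 other neighbours, 1 was lower in each library, Gm26881, an antisense RNA with 24, 9, 9 and 11 counts. One neighbour of that class, 4930578G10Rik, was higher in KO26F and WT22M, with 0, 11, 0 and 11 counts; it and Gm21955 were named after their values were seen.

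Neighbours with at least 50 counts in a library were 11, none of them multi-copy. The highest and lowest library differed by 1.55 times for Il11ra1, by 1.33 times for Rpp25l, a ribonuclease P subunit homolog, and by 1.26 times for Unc13b, which primes synaptic vesicles. Dctn3, a dynactin subunit, Phf24 and Pigo, an enzyme of GPI-anchor synthesis, differed by 1.25, 1.23 and 1.15 times. Il11ra1, which borders Ccl27a and shares 46.3% of its windows with other genes, had 208 counts in WT25F, 238 in KO26F, 290 in KO23M and 319 in WT22M, as ordered for Ccl27a. Pigo, next to Fancg, had 1019, 960, 936 and 878, the reverse order of the carriers. Between KO libraries and carriers 0 of the 21 neighbours tested passed, with a median log2 fold change of 0.03.

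Profiles over the 4 libraries were compared by Euclidean distance of centred log2(CPM + 0.5) among 694 genes that passed the low-count filter and varied by more than 1 on the log2 scale. Nearest to Gm13303 were Gm8822, a processed pseudogene on chromosome X with 434, 415, 243 and 39 counts in WT25F, KO26F, KO23M and WT22M (distance 0.50), then Ccl27b (0.76), Gm10601 (0.77), Gm21093 (0.81) and Rec8, a meiotic cohesin subunit on chromosome 14 (0.88). Ccl27b and Gm10601 were thus about equally near to Gm13303 by this measure, although Ccl27b shares no window with Gm13303. Nearest to Vcp-rs were Gm12407 (0.13), Gm3883 (0.37), Fam183b on chromosome 11 (0.38), Gm3892 (0.42) and Scoc on chromosome 8 (0.44). Of these, Gm12407, Gm3883 and Gm3892 are multi-copy neighbours on chromosome 4, with 39, 26, 21 and 1 counts for Gm12407. With 4 points per profile and a pseudocount that shrinks genes with few counts, these distances are a description.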

How the data were processed

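Per the file headers, each of the 3 deposited tables pairs WT25F with 1 other library and gives a raw count for each gene. The authors' normalized columns are CPM values, in which a gene without counts is written as 0.5 counts. Bowtie2 2.2.3, TopHat2 2.0.12, HTSeq 0.6.0 and build mm9 are named in the submitters' processing notes. The positions in the files are those of GRCm38: all 8 genes have the same position in GENCODE vM21. No source used here gives the strand or multi-mapping settings.

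Tables were joined on the gene identifier (22084 genes), and CPM was recomputed from counts. Of the 22084 genes, 19626 had an entry for every library, and a missing entry was set to 0 counts. The KO libraries were compared with the carriers with edgeR 4.0.16 (quasi-likelihood test, robust fit, TMM, filterByExpr, Benjamini-Hochberg 0.05) under R 4.3.3. Alternatives were RLE factors, DESeq2 1.42.0, other filters, the title letter as a block, and each library left out. Tested on simulated counts for KO against carriers, the fit called 12 of 71 genes changed by 1.5-fold and 48 of 66 by 2-fold. It called 57 of 59 changed by 4-fold and 4 of 15799 unchanged genes. These rates hold only for the spread that was simulated, and its match to the genes or lists reported here was not tested. For the genes chosen by name, standard errors of the log2 fold change ran from 0.19 (Fancg) to 1.97 (Gm13303). The rates thus do not show which changes the fit could find in them. Intervals are exact, at 95%. Shared windows were counted in GENCODE vM21 transcripts.

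The 8 genes and the gene lists were chosen with earlier results of these data known. Genes named are the 8, the neighbours with at least 50 counts and the largest ratio of highest to lowest CPM (up to 6), and the 5 nearest profiles. For the cofactor, Fanconi, chemokine and skin lists, the genes that passed or else the 3 with the smallest p were also named. Genes of the other marker lists were not named singly, apart from Ttr. Ccr10, Ccl28, Cxcr4, Trp63, Krt15 and Ttr were named after their values were seen. RefSeq promoter entries were found for 4 of the 8.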

Additional observations from a re-analysis of the deposited data

Results flagged for a closer look

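The KO libraries differed from the carrier of the same title letter in opposite directions for F and M. The log2 ratio of KO23M to WT22M minus that of KO26F to WT25F was 6.68 for Ccl27b, 2.25 for Vcp-rs, -1.03 for Ccl27a, -0.74 for Vcp and -0.53 for Fancg. With 3 counts in place of the 0 in WT22M, it was 4.66 for Gm13303, 4.08 for Gm10601 and 3.88 for Gm21093, which are lower bounds. The F pair holds the carrier WT25F and the M pair the carrier WT22M. Both KO libraries lay between these carriers in all 8 genes, so the opposite directions follow from that position and are no separate result. With 1 library per genotype and letter, the difference was not tested. For Gm10601 the interval of the F pair includes no change (log2 ratio -0.17, 95% counting interval -0.74 to 0.39).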

How the results depend on the processing

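Under RLE factors, DESeq2, no filter and a filter of 1 CPM in 2 libraries, all 32 fits of the 8 genes kept their direction and none was called. With the title letter as a block, Ccl27b turned to 0.46 and Gm21093 to 0.43, neither called; the cause was not tested. Leaving out each library gave log2 fold changes of -0.62 to 0.53 for Ccl27a, -1.04 to 5.31 for Ccl27b, -0.76 to 9.18 for Gm13303, -0.24 to 8.61 for Gm10601, -1.08 to 8.01 for Gm21093, -0.28 to 0.51 for Vcp, -0.66 to 1.64 for Vcp-rs and -0.27 to 0.39 for Fancg. Fitted changes of genes at 0 in WT22M depend on the prior count and are no bounds.

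The count of genes called rose from 10 to 123 with the block and to 48, 65, 100 and 59 without KO26F, KO23M, WT25F and WT22M. The block called 1 chemokine gene (Cxcl12), and 0 to 2 chromosome 4 neighbours were called without a library (Gm12394 and Gm12407 without WT25F). The KO to carrier log2 ratio was 0.07 for Vcp and Vcp-rs summed (-0.04 to 0.18 without a library) and -0.09 for Ccl27a, Ccl27b, Gm13303, Gm10601 and Gm21093 summed (-0.33 to 0.18), or 0.20 without Ccl27a and -0.14 for Ccl27a, Ccl27b and Gm13306, a sum added after seeing the data. Neighbours lower than WT25F went from 7 to 1 in KO26F and from 10 to 4 in KO23M at 4-fold, and from 7, 10 and 13 to 0 in KO26F, KO23M and WT22M with at least 50 counts, a depth that no multi-copy neighbour reaches; higher ones went from 1 to 2 in KO26F and from 1 to 3 in WT22M at 1.5-fold and to 0 at 50 counts. The replicate numbers in the labels differ between all 4 libraries and pair none of them, so the title letter served as the block. Setting absent members to 4 counts did not apply, since all 8 genes were listed in each table.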
